A study of Mus musculus with 9 samples.

Results

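The mRNA levels of 10 genes that encode basement membrane proteins were followed in embryoid bodies (EBs) of the mouse, which are clumps of embryonic stem cells left to differentiate together. The genes were chosen by symbol and matched to Ensembl identifiers: *Col4a1*, *Col4a2*, *Lama1*, *Lama5*, *Lamb1*, *Lamc1*, *Nid1*, *Nid2*, *Hspg2* and *Sparc*. They are 10 of the 55471 gene IDs that were counted, and all 10 passed the filter on low counts in each comparison. The EBs came from E-14 embryonic stem cells. They were formed in hanging drops and then differentiated for 3 days on gelatin in medium without leukemia inhibitory factor. WT_EB libraries are from the parental line. KO_EB libraries are from Tnfaip2-/- cells, which the study's methods describe as 1 CRISPR/Cas9 clone with an early stop codon. KO_EB_PAPC libraries are from the same Tnfaip2-/- cells supplied with PA (palmitic acid) at 8 μM and PC (palmitoyl-L-carnitine) at 8 μM. Per the study's methods, PA/PC was present while the EBs formed as well as while they differentiated. Each group has 3 libraries, which the study calls biological replicates. For KO EBs with and without PA/PC the study describes pools of EBs whose number differed between pools. WT EBs given PA/PC were not analysed here, so the treatment can be compared only within the KO line. As the study's methods are worded, treated EBs were also formed in fibroblast (MEF) medium and the others in embryonic stem cell medium. Of these media only the embryonic stem cell medium is listed with leukemia inhibitory factor. PA/PC and this change of medium cannot be told apart. Effects of the deletion and of the clone cannot be told apart.

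A basement membrane is a thin sheet of matrix under epithelia and around vessels. Collagen IV, a trimer made mostly of α1 and α2 chains (*Col4a1*, *Col4a2*), forms one network, and laminins, each a trimer of an α, a β and a γ chain, form the other. Nidogens (*Nid1*, *Nid2*) and the heparan sulfate proteoglycan perlecan (*Hspg2*) link the networks, and *Sparc* encodes a collagen-binding glycoprotein. In EBs the sheet is laid down between the outer endoderm and the inner epiblast, and primitive and parietal endoderm are known as strong producers of collagen IV and laminin-111 (α1β1γ1). Laminin-511 carries α5 in place of α1.

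The 2 collagen IV genes lie head to head on mouse chromosome 8 in build GRCm38. *Col4a1* (ENSMUSG00000031502, minus strand) spans bases 11198423 to 11312826 and *Col4a2* (ENSMUSG00000031503, plus strand) spans bases 11312805 to 11449287, so the annotated genes overlap by 22 bases at their starts. *Lama5* (ENSMUSG00000015647) is on chromosome 2, minus strand, from 180176373 to 180225859. The start regions of these 3 genes are shown because the collagen pair kept 1 ratio in every group, while *Lama5* moved against the rest in the treated EBs. They are RefSeq sequences on GRCm38.p6, from 250 bases before to 50 bases after the start, read 5′ to 3′ on the gene's own strand. Capitals mark matches to CCAAT or GGGCGG on either strand (ATTGG and CCGCCC are the reverse strand readings).
Col4a1 (chr8:11312777-11313076, minus strand): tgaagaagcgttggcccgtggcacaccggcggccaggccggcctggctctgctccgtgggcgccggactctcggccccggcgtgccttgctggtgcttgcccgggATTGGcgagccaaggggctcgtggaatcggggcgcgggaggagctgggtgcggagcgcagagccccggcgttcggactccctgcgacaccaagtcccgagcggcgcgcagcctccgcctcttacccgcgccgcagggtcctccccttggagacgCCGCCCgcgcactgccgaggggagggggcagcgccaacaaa
Col4a2 (chr8:11312555-11312854, plus strand): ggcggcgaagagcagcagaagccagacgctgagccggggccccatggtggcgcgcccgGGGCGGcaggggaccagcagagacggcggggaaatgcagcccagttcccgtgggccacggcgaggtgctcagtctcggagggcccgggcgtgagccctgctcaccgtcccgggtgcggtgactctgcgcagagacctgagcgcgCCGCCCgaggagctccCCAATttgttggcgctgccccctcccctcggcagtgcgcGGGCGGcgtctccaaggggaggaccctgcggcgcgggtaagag
Lama5 (chr2:180225810-180226109, minus strand): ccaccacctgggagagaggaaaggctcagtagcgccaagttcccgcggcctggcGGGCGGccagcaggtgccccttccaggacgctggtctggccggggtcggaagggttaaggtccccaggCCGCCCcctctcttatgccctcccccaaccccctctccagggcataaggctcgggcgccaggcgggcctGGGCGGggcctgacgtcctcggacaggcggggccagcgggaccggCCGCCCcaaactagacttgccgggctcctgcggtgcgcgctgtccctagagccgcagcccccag

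The *Col4a1* and *Col4a2* starts are 21 bases apart, and the last 78 bases of both windows are the same DNA read on opposite strands. The *Col4a1* window holds 37 CpG pairs, that of *Col4a2* 33 and that of *Lama5* 24, beside a median of 7 over 32851 RefSeq windows of the same 300 bases. CCAAT, which 37.4% of all windows hold, has 1 match in each collagen window and none in that of *Lama5*. GGGCGG, held by 35.7% of all windows, has 1 match in *Col4a1*, 3 in *Col4a2* and 4 in *Lama5*. The *Col4a1* match and 1 of the *Col4a2* matches are the same site, within the shared 78 bases. AGATAA, a form bound by GATA factors and held by 11.2% of windows, and ACAATG, a form bound by SOX factors and held by 12.6%, have no match in these 3 windows nor in those of *Lamb1*, *Nid1*, *Hspg2* and *Sparc*. The *Sparc* window (chr11:55420031-55420330) lies inside the GENCODE gene, away from its annotated start at 55423183. Windows were matched for 7 of the 10 genes, not for *Lama1*, *Lamc1* and *Nid2*.

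Values are CPM, a gene's counts divided by the library total and scaled alike in every library, with mean ± SD over 3 libraries. Total counts ranged from 27362913 to 28914312 per library. Fold changes come from edgeR's quasi-likelihood test, which scales libraries by TMM, and a gene was called at a Benjamini-Hochberg adjusted p under 0.05 over all genes tested. Each SE is the absolute log2 fold change divided by the square root of that test's F statistic. It was not estimated apart from the p-value. *Tnfaip2* itself had 5 to 8 counts in KO EBs, 6 to 16 in WT EBs and 14 to 25 in KO EBs with PA/PC, too few to check the genotype labels, and an early stop codon need not lower the count. In RNA of whole EBs, fewer cells of a type and less RNA per cell cannot be told apart.

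Summed over the 10 genes, the level was 3118 ± 85.5 CPM in WT EBs, 2089 ± 19.6 in KO EBs and 985.7 ± 16.5 in KO EBs with PA/PC. Collagen IV, laminin α1 and *Sparc* went down at each step, laminin α5 went down and came back, and the nidogens went up and then down. The plot of CPM by gene and library shows these 3 shapes.

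**Figure D1:**
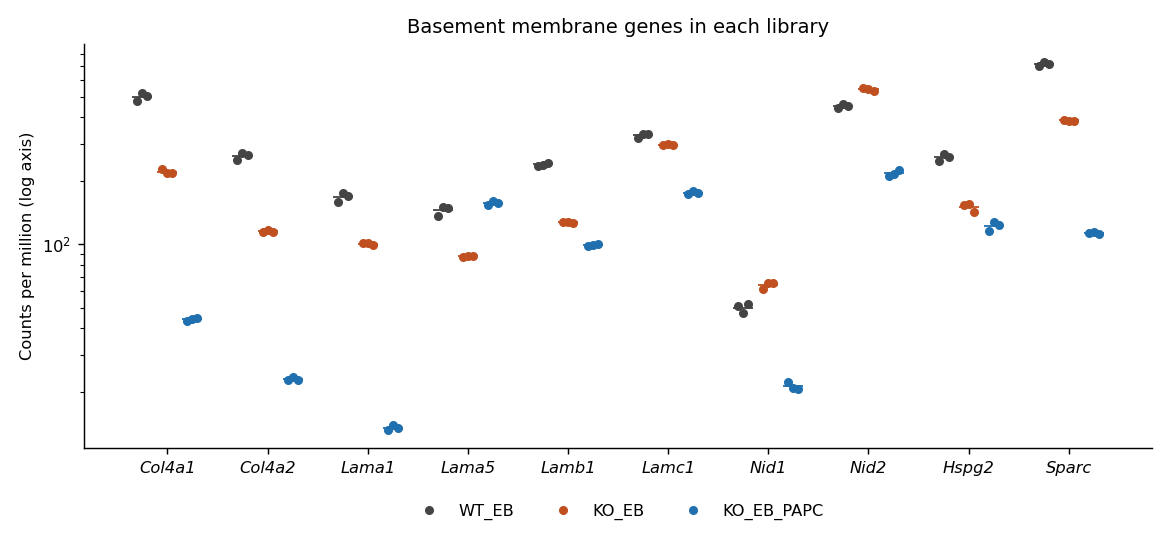
CPM (log axis) of each gene in the 3 WT_EB, 3 KO_EB and 3 KO_EB_PAPC libraries; each point is a library and each short line a group mean. Col4a1 drops from 500 to 221 to 44.0 CPM, Lama5 returns from 87.6 to 157 CPM, and no gene's groups overlap.

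The collagen IV chains were measured first. *Col4a1* had 477.9, 518.8 and 503.2 CPM in the WT libraries, 226.1, 218.5 and 217.3 in the KO libraries and 43.3, 44.0 and 44.8 in the KO libraries with PA/PC. *Col4a2* had 251.5, 269.6 and 264.6 CPM in WT, 113.7, 117.0 and 114.3 in KO and 22.7, 23.4 and 22.8 with PA/PC. For both chains each treated library was below each KO library, and each KO library was below each WT library. *Col4a1* fell 2.27-fold from WT to KO (log2 fold change -1.18 ± 0.026 SE, edgeR, adjusted p = 1.22e-28) and *Col4a2* fell 2.28-fold (-1.19 ± 0.028, adjusted p = 5.65e-28). From KO to PA/PC the falls were 4.46-fold for *Col4a1* (-2.16 ± 0.033, edgeR, adjusted p = 5.79e-36) and for *Col4a2* (-2.16 ± 0.039, adjusted p = 1.14e-33). Against WT EBs the treated KO EBs were 10.1-fold and 10.2-fold lower.

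The chains kept their proportion throughout. Per kilobase of annotated exon, the ratio of *Col4a2* to *Col4a1* was 0.591 ± 0.0042 in WT, 0.588 ± 0.019 in KO and 0.589 ± 0.013 with PA/PC, and the groups overlapped. The log2 ratio differed between groups by at most 0.007 (exact permutation test, two-sided, p = 0.9 for KO against WT, p = 1 for PA/PC against KO and p = 0.8 for PA/PC against WT), while the levels moved by over 10-fold.

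Among the laminins, the α chains parted. *Lama1* (α1; chromosome 17, 67697259 to 67822647) had 159.3, 175.7 and 169.5 CPM in WT, 101.1, 101.0 and 98.7 in KO and 13.2, 13.9 and 13.5 with PA/PC. *Lama5* (α5) had 136.6, 150.6 and 148.6 CPM in WT, 86.7, 87.7 and 88.4 in KO and 154.0, 159.6 and 157.6 with PA/PC. Both were lower in every KO library than in any WT library, and by about the same factor, whereas with PA/PC *Lama1* was below every KO library and *Lama5* was above every WT library. *Lama1* fell 1.68-fold from WT to KO (-0.75 ± 0.031, edgeR, adjusted p = 8.7e-21) and a further 6.62-fold with PA/PC (-2.73 ± 0.045, adjusted p = 4.15e-35). *Lama5* fell 1.66-fold from WT to KO (-0.73 ± 0.033, edgeR, adjusted p = 4.77e-20) and rose 2.01-fold with PA/PC (1.01 ± 0.030, adjusted p = 8.45e-27). Against WT EBs, treated KO EBs had 0.28 ± 0.035 more *Lama5* on the log2 scale (adjusted p = 1.11e-07). This last difference was 0.11 when libraries were scaled by their totals instead of TMM.

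Per kilobase, *Lama5* made up 42.4% ± 0.32 of the summed *Lama1* and *Lama5* counts in WT EBs, 42.6% ± 0.55 in KO EBs and 90.8% ± 0.088 in KO EBs with PA/PC. The WT and KO ranges overlapped, and the treated libraries, at 90.7 to 90.9%, lay far above both. The log2 ratio of *Lama5* to *Lama1* counts was tested in place of the share. For KO against WT it gave p = 0.5 (exact permutation test, two-sided). For PA/PC against either group the exact permutation test gave p = 0.1, the smallest that 3 against 3 libraries allow.

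The β and γ chains were measured next. *Lamb1* (β1; chromosome 12, 31265234 to 31329644) had 235.7, 238.2 and 242.3 CPM in WT, 127.8, 126.8 and 126.7 in KO and 98.3, 99.5 and 100.4 with PA/PC. It fell 1.88-fold from WT to KO (-0.91 ± 0.026, edgeR, adjusted p = 9.52e-26) and by -0.19 ± 0.030 on the log2 scale with PA/PC (adjusted p = 6.91e-07). That second step was -0.36 when scaled by library totals. *Lamc1* (γ1; chromosome 1, 153218922 to 153332786), the chain shared by laminin-111 and laminin-511, had 319.3, 331.6 and 334.0 CPM in WT, 296.7, 297.3 and 295.3 in KO and 173.1, 178.2 and 174.0 with PA/PC. The KO libraries were only just under the lowest WT library (-0.15 ± 0.023, edgeR, adjusted p = 1.21e-06), and the main step for *Lamc1* came with PA/PC (-0.59 ± 0.027, adjusted p = 1.87e-21).

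The ratio of *Lamc1* to *Lamb1* per kilobase was 1.65 ± 0.022 in WT, 2.80 ± 0.013 in KO and 2.11 ± 0.035 with PA/PC, with no overlap. The size of this ratio depends on the gene model: with the longest transcripts as lengths, an alternative added after the data were seen, it was 1.04, 1.77 and 1.34, in the same order. Summed α1 and α5 counts per kilobase were 0.759 ± 0.023 of those of *Lamc1* in WT, 0.504 ± 0.00084 in KO and 0.718 ± 0.0065 with PA/PC. For the γ1 to β1 ratio each pair of groups gave the smallest possible p of 0.1 in the two-sided exact permutation test. The plot of chain ratios sets these beside the collagen ratio.

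**Figure D2:**
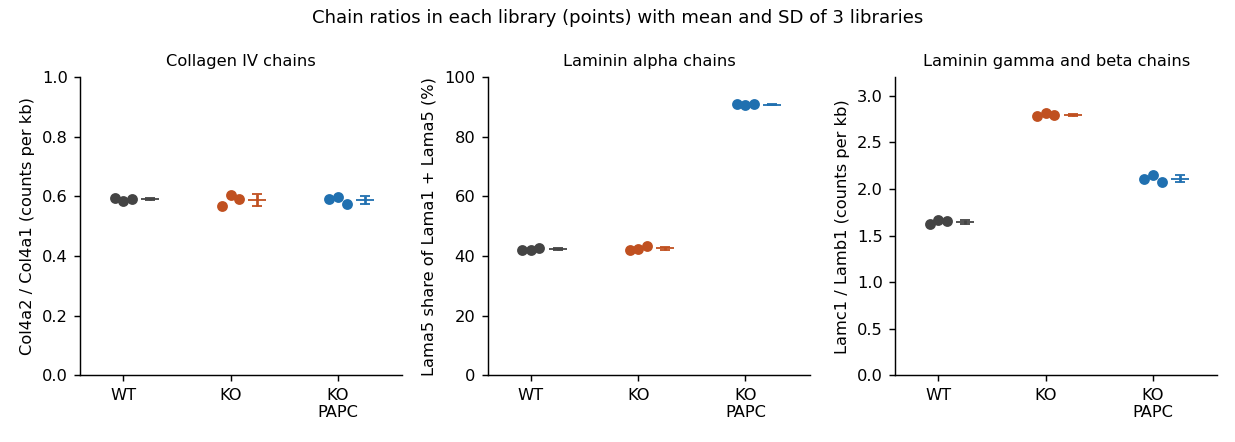
Ratios of counts per kilobase in each library (points), with the mean and SD of each group's 3 libraries beside them: Col4a2 over Col4a1, the Lama5 share of Lama1 plus Lama5 in percent, and Lamc1 over Lamb1. The collagen ratio stays near 0.59 in all 9 libraries, the Lama5 share goes from 42.6% in KO to 90.8% with PA/PC, and the Lamc1 to Lamb1 ratio is highest in KO at 2.80.

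The mRNAs of the linker proteins had their own order. *Nid1* (chromosome 13, 13437551 to 13512269) had 50.9, 47.3 and 51.9 CPM in WT, 61.5, 65.2 and 65.5 in KO and 22.3, 20.8 and 20.6 with PA/PC. *Nid2* (chromosome 14, 19751265 to 19811787) had 443.5, 460.8 and 453.7 CPM in WT, 549.5, 542.4 and 533.3 in KO and 210.8, 216.0 and 224.4 with PA/PC. These were the only members of the 10 that were higher in KO than in WT EBs, and each was lowest in the treated libraries. *Nid1* rose 1.28-fold (0.36 ± 0.039, edgeR, adjusted p = 5.42e-10) and *Nid2* 1.20-fold (0.26 ± 0.022, adjusted p = 1.27e-12) from WT to KO. With PA/PC they fell 2.69-fold (-1.43 ± 0.046, edgeR, adjusted p = 6.5e-26) and 2.22-fold (-1.15 ± 0.027, adjusted p = 2.17e-30). Part of the *Nid2* exons (437 bases) overlaps *Rtraf* and 143 bases of *Nid1* overlap *Gm48682*. The libraries were not stranded, and the counting that the study's methods describe leaves out reads that overlap several genes.

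*Hspg2* (perlecan; chromosome 4, 137468769 to 137570630) had 248.2, 268.0 and 258.9 CPM in WT, 152.7, 154.5 and 142.8 in KO and 116.1, 127.4 and 122.9 with PA/PC. It fell 1.72-fold from WT to KO (-0.78 ± 0.030, edgeR, adjusted p = 5.07e-22), and the step with PA/PC was small (-0.13 ± 0.034, adjusted p = 0.000682). The size of that small step was unsteady, at -0.08 without KO_EB_PAPC replicate 1 (adjusted p = 0.00785) and -0.30 with library totals. *Sparc* (chromosome 11, 55394500 to 55423183) had 699.6, 727.4 and 716.3 CPM in WT, 388.8, 385.1 and 384.8 in KO and 113.0, 114.8 and 111.5 with PA/PC. It followed collagen IV downwards, 1.85-fold from WT to KO (-0.89 ± 0.022, edgeR, adjusted p = 1.18e-27) and 3.04-fold with PA/PC (-1.61 ± 0.027, adjusted p = 1.35e-34).

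Levels of different genes were compared as RPKM, which is CPM per kilobase of exon. In WT EBs *Sparc* stood highest at 189 ± 3.69 RPKM, then *Nid2* at 87.5 ± 1.68 and *Col4a1* at 67.0 ± 2.76, and *Nid1* was lowest at 7.21 ± 0.35. *Lamc1* and *Col4a2* (39.7 and 39.6) did not differ beyond their spread, nor did *Hspg2* and *Lama1* (18.1 and 17.4). In KO EBs *Nid2* (105 ± 1.57) was just above *Sparc* (102 ± 0.59), and *Lama5* was lowest at 7.69 ± 0.074. With PA/PC the order was *Nid2* (42.0), *Sparc* (29.9), *Lamc1* (21.2), *Lama5* (13.8), *Lamb1* (10.0), *Hspg2* (8.54), *Col4a1* (5.90), *Col4a2* (3.47), *Nid1* (3.06) and *Lama1* (1.395), with no overlap between neighbours. Lengths are of the union of annotated exons, and these orders hold for that choice only. With the longest transcripts *Sparc* was above *Nid2* in KO EBs (168 against 111 RPKM) and with PA/PC (49.2 against 44.5), and *Lamb1* was above *Lama5* with PA/PC (17.2 against 13.8). For *Lamb1* the union is 9917 bases against 5784 for the longest transcript, and with the latter its WT level is 41.3 rather than 24.1 RPKM, between *Lamc1* (43.1) and *Col4a2* (40.6).

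All 10 genes were called in each comparison, but so were most genes. KO and WT EBs differed for 73.8% of 17355 genes (36.8% higher and 37.1% lower in KO), and the groups did not overlap for 75.2%. Of the 10 genes, 2 were higher and 8 lower, with a median log2 fold change of -0.76 beside -0.01 over all genes. At a minimum fold change of 2 (edgeR's test against that threshold), 9.14% of all genes and 2 of the 10 were called, *Col4a1* and *Col4a2*. PA/PC and untreated KO EBs differed for 81.8% of 17167 genes (39.6% higher and 42.2% lower with PA/PC, no overlap for 82.1%). Here 1 of the 10 genes was higher and 9 were lower, with a median of -1.29 beside -0.02, and beyond 2-fold 20.7% of all genes and 6 of the 10 were called, all lower. Treated KO and WT EBs differed for 70.6% of 16655 genes (34.2% higher and 36.4% lower, no overlap for 73%). Again 1 of the 10 was higher and 9 were lower, with a median of -1.09 beside -0.02, and beyond 2-fold 8.02% of all genes and 5 of the 10 were called, all lower. The comparisons share libraries and are not independent of each other. With library totals in place of TMM the median of all genes moved to -0.18 in both comparisons with PA/PC, and no member changed direction. Over all genes that scaling called 5317 higher and 8684 lower with PA/PC than in KO, in place of 6801 and 7246, and 3616 higher and 8341 lower in treated KO than in WT EBs, in place of 5693 and 6067.

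**Figure D3:**
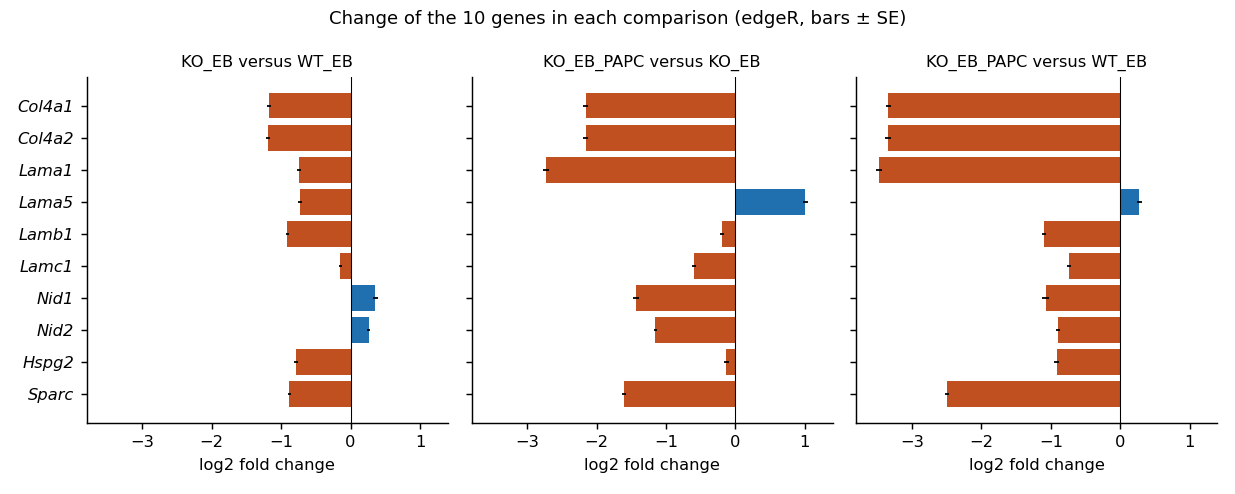
log2 fold change of each gene (bars, with SE derived from edgeR's F statistic) in the 3 comparisons. Left of 0 is lower in the first named group. Col4a1, Col4a2 and Lama1 reach -3.34 to -3.47 in treated KO EBs against WT EBs, and Lama5 is the only bar to the right of 0 in both comparisons with PA/PC.

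The genes that mark the cells known to make this matrix moved in the same comparisons. Of 12 primitive and parietal endoderm markers, 11 were lower and 1 higher in KO than in WT EBs (median -0.997), and 10 were lower and 1 higher with PA/PC than in untreated KO EBs (median -2.39). Of all genes tested, 37.1% were lower and 36.8% higher in KO, and 42.2% lower and 39.6% higher with PA/PC. The summed level of the 12 markers was 332 to 342 CPM in WT, 179 to 188 in KO and 69.0 to 73.1 with PA/PC. The largest part of that sum was *Dab2* in WT and KO EBs (116 and 86.4 CPM). With PA/PC it was *Fst* (34.8 CPM, against 13.4 for *Dab2*). *Pdgfra*, a receptor kept by primitive endoderm, went from 35.4 ± 0.70 to 13.3 ± 0.99 to 2.34 ± 0.27 CPM. *Gata4*, an endoderm transcription factor, went from 32.5 ± 1.24 to 21.03 ± 0.30 to 2.59 ± 0.40, and *Sox17*, another, was near 0 with PA/PC at 0.710 ± 0.17 CPM. The marker that was higher in KO than in WT was *Thbd*, thrombomodulin, at 0.870 ± 0.27, 3.71 ± 0.14 and 0.181 ± 0.063 CPM; it was named after its values were seen. *Fst*, which encodes the activin-binding follistatin, fell with the others in KO but rose with PA/PC, from 27.5 ± 1.87 to 4.34 ± 0.30 to 34.8 ± 1.26 CPM. The part of these cells in the levels of the 10 genes was not tested.

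**Figure D4:**
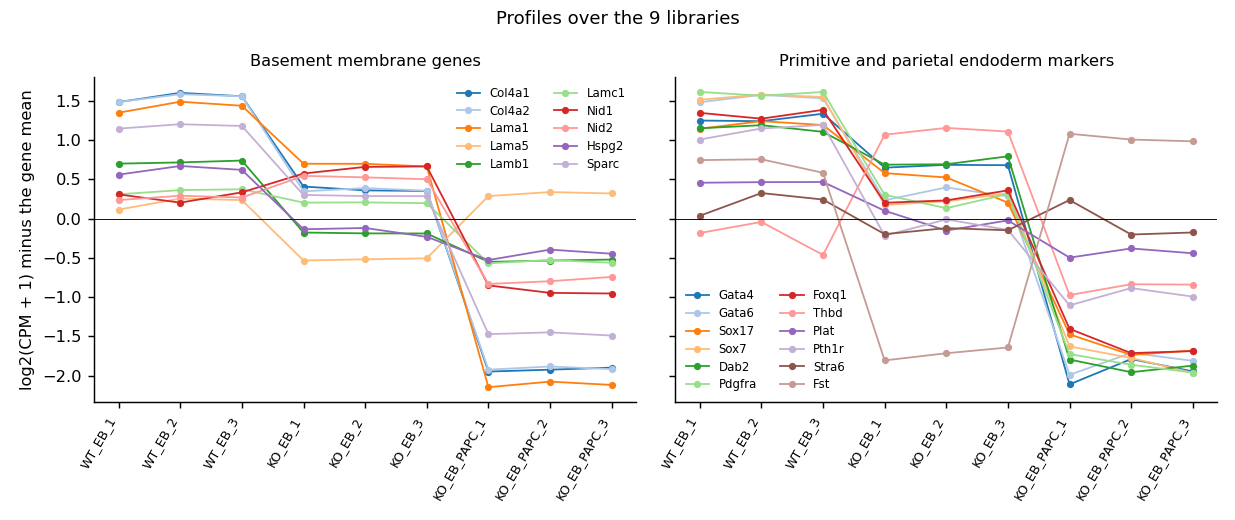
log2(CPM + 1) minus each gene's mean over the 9 libraries, for the 10 basement membrane genes (left) and the 12 primitive and parietal endoderm markers (right); each line is a gene and each point a library. Col4a1, Col4a2, Lama1 and Sparc step down at both changes, as do Gata4, Sox17 and Pdgfra, while Lama5 and Fst turn upward with PA/PC.

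Other cell types that carry or touch a basement membrane were also measured. Their counts stand beside 36.8% of all genes higher and 37.1% lower in KO than in WT, and 39.6% higher and 42.2% lower with PA/PC. Of 11 visceral endoderm markers, 7 were lower and 4 higher in KO than in WT (median -0.28), and 10 were lower and 0 higher with PA/PC than in KO (median -2.47). The summed level went from 1759 to 1850 CPM in WT to 1238 to 1324 in KO and 859 to 915 with PA/PC. Most of that sum was *Apoe* (1067, 881 and 695 CPM in WT, KO and treated KO EBs) and *Lrp2* (376, 186 and 165). *Afp*, alpha-fetoprotein, was among the 4 that were higher in KO than in WT, at 11.01 against 4.75 CPM (1.21 ± 0.084, edgeR, adjusted p = 7.69e-15). *Cubn*, the endocytic receptor cubilin, fell from 238 to 98.8 to 8.76 CPM (-1.27 ± 0.027 and -3.33 ± 0.049, edgeR, adjusted p = 2.59e-29 and 1.66e-36). Of 8 endothelial markers *Emcn* was at 0 in every library. In KO against WT EBs 5 of the 7 tested were higher and 0 lower, and with PA/PC 6 of 7 were lower than in KO and 1 higher. Apart from *Pecam1* these markers were low in every group, with means up to 7.10 CPM (*Tek* in KO EBs). Means of *Cdh5*, *Tie1*, *Erg* and *Sox18* were at most 1.66 CPM. *Pecam1*, the platelet and endothelial adhesion molecule that embryonic stem cells also carry, went from 80.8 to 138 to 26.5 CPM. Of 10 epiblast and pluripotency markers 7 were higher and 2 lower in KO than in WT, and 3 were higher and 7 lower with PA/PC than in KO. Their part in the levels of the 10 genes was likewise not tested.

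The mRNAs of proteins that fold, hydroxylate and cross-link collagen mostly fell with those of collagen IV in the knockout. Most of these mRNAs did not follow collagen IV down with PA/PC. Of 15 collagen processing and secretion genes 13 were lower, as collagen IV was, and 1 higher in KO than in WT EBs (median -0.57). The shares of all genes were 37.1% and 36.8%. *Col4a1* and *Col4a2* fell with PA/PC. There 10 of the 15 were higher and 4 lower than in KO (median 0.20), beside 39.6% and 42.2% of all genes. In 4 of these 10 the CPM ranges overlapped, and with library totals 7 were higher and 4 lower (median 0.03), so the direction of the smaller changes rests on the scaling. *Loxl2*, a lysyl oxidase that cross-links collagen IV, had 73.4 CPM in WT, 17.4 in KO and 93.8 with PA/PC (-2.07 ± 0.043 and 2.59 ± 0.042, edgeR, adjusted p = 1.61e-29 and 4.02e-35). *P4ha1*, a prolyl hydroxylase subunit, had 201.5, 84.3 and 185 CPM (-1.26 ± 0.029 and 1.30 ± 0.030, adjusted p = 2.27e-28 and 2.46e-30). *Serpinh1*, the collagen chaperone HSP47, was 1.55 ± 0.029 lower on the log2 scale in treated KO than in WT EBs, at 137 against 450.5 CPM (edgeR, adjusted p = 8.02e-24).

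The other basement membrane components showed no common direction in the knockout. Of 25 genes 22 were tested in KO against WT EBs, and 10 were higher and 10 lower (median 0.23), beside 36.8% and 37.1% of all genes. With PA/PC 12 of 21 were lower and 4 higher than in KO (median -0.69), beside 42.2% and 39.6% of all genes. *Tinagl1*, a secreted glycoprotein related to tubulointerstitial nephritis antigen, fell from 16.0 to 1.63 CPM with PA/PC (-3.13 ± 0.11, edgeR, adjusted p = 9.27e-25), and *Npnt*, the integrin ligand nephronectin, fell from 13.8 to 3.02 (-2.03 ± 0.10, adjusted p = 1.24e-19). *Fbln2*, fibulin 2, was 1.51 ± 0.065 higher on the log2 scale in KO than in WT EBs (edgeR, adjusted p = 1.44e-20). In treated KO against WT EBs 13 of 20 were lower and 4 higher, beside 36.4% and 34.2% of all genes.

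Of 13 receptor genes for basement membrane proteins 12 were tested. In KO against WT 4 were higher and 6 lower, beside 36.8% and 37.1% of all genes. With PA/PC again 4 were higher and 6 lower than in KO, beside 39.6% and 42.2%. *Bcam*, the laminin α5 receptor Lutheran, was lower in KO than in WT EBs, at 24.9 against 53.7 CPM (-1.11 ± 0.045, edgeR, adjusted p = 3.06e-21). *Itgb4*, the β4 subunit of a laminin-binding integrin, fell from 22.6 to 4.23 CPM with PA/PC (-2.25 ± 0.083, adjusted p = 5.88e-24), and *Sdc1*, syndecan 1, rose from 31.3 to 71.5 CPM (1.36 ± 0.040, adjusted p = 4.67e-27). All 8 matrix proteases and inhibitors were lower in KO than in WT (median -0.30), beside 37.1% of all genes, and 1 of the 8 was called beyond 2-fold. With PA/PC 6 were higher and 1 lower than in KO (median 0.56), beside 39.6% and 42.2% of all genes. *Mmp14*, a membrane-bound collagenase, had 58.0 CPM in WT, 15.2 in KO and 37.3 with PA/PC. Of 12 interstitial matrix genes 7 were tested in KO against WT (3 higher, 2 lower) and 9 with PA/PC against KO (4 higher, 4 lower). These counts stand beside the same shares of all genes.

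**Figure D5:**
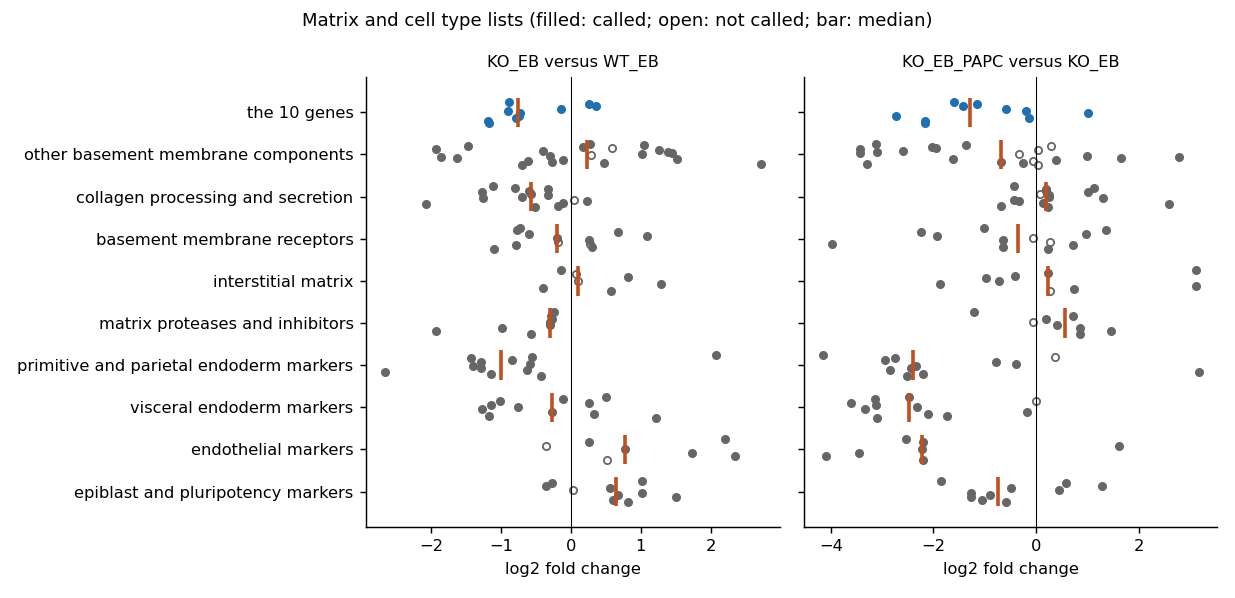
log2 fold change of each tested gene by list in KO against WT EBs (left) and in KO EBs with PA/PC against untreated KO EBs (right); filled points were called, open points were not, and vertical bars are list medians. The medians of the 10 genes are -0.76 and -1.29, those of the primitive and parietal endoderm markers -0.997 and -2.39, and those of collagen processing -0.57 and 0.20.

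Likeness of pattern was measured as the root mean square difference of centred log2(CPM + 1) values over the 9 libraries, among genes that averaged 10 CPM or more. Taken from *Col4a1*, *Col4a2* was the nearest of 9790 genes (0.029), *Lama1* was 10th in order (0.23) and *Sparc* 19th (0.34). The nidogens, *Lamb1*, *Hspg2* and *Lamc1* stood between rank 246 and rank 472, and *Lama5* was at rank 8468 (1.595). After *Col4a2* the nearest were *Nupr1* (a stress-response transcriptional regulator, 0.083), *Gata6* (an endoderm transcription factor, 0.10), *Pdgfra* (0.13) and *Clic6* (a chloride channel protein, 0.16), named after their values were seen. The added 1 CPM shrinks falls to low levels, and *Nupr1*, *Gata6* and *Pdgfra* had 3.00, 2.00 and 2.34 CPM with PA/PC. By edgeR, *Gata6* and *Pdgfra* fell more than *Col4a1* in treated KO against WT EBs (-3.74 and -3.75 against -3.34). Their closeness to *Col4a1* thus depends in part on the added 1. The genes nearest to the median profile of the 10 were *Gpc4* (glypican 4), *Mib2* (a ubiquitin ligase), *Nqo1* (a quinone reductase), *F3* (tissue factor) and *Zfp229*, with differences of 0.071 to 0.085 among 9781 genes. *Gpc4*, the closest, had 59.99, 49.4 and 20.9 CPM in WT, KO and treated KO EBs. Libraries of 1 group share their culture conditions, so these 9 points amount to 3 conditions.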

How the data were processed

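RNA-seq read counts per Ensembl gene were used for 9 libraries in 3 groups named by the titles. The authors made the deposited counts from unstranded TruSeq single-end libraries of 51 cycles. Per the labels, reads were mapped with STAR 2.7.2b to GRCm38 and counted with featureCounts 1.6.5; the study's methods give an earlier pipeline for a first analysis of the WT and KO EBs. The counts are whole numbers and not normalized. GENCODE M21 gave symbols, positions and exon lengths (241 of 55471 IDs had no match), and RefSeq gave the promoter windows.

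Each contrast was fitted on its own 6 libraries with edgeR 4.0.16 (R 4.3.3; quasi-likelihood test, TMM, filterByExpr, Benjamini-Hochberg, no covariates), tested on simulated data. CPM and RPKM were computed from library totals. Counting depth was even between libraries, and p-values measure the spread between these libraries, not between clones. Replicate pairs differed beyond sampling noise (chi-square test), with chi-square per degree of freedom from 1.22 to 3.451. The SD of the 10 genes within a group was 0.34% to 5.23% of the mean, and the small p-values rest on this narrow spread. Alternatives were DESeq2 1.42.0, RLE size factors, library totals, other filters, a joint fit, a replicate block, a minimum fold change and leaving out each library. The 10 genes and the 9 other lists were chosen with earlier results of these data known. All 10 genes are given in full. Genes of other lists were taken from the 3 called genes per list and contrast with the largest change and a mean of at least 5 CPM in 1 group, or are defining cell type markers. No batch was given in the labels.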

Additional observations from a re-analysis of the deposited data

How the results depend on the processing

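Of 420 alternative values for the 10 genes, 403 kept their direction and their side of the threshold, 17 kept their direction but not their call, and 0 reversed. All 17 came from requiring a fold change of at least 2, under which 2 of the 10 genes were called in KO against WT EBs, 6 with PA/PC against KO and 5 in treated KO against WT. Leaving out each library in turn left all 10 called in each comparison. Same-numbered libraries showed no steady pairing over the comparisons (correlations of their deviations from -0.324 to 0.451). For treated KO against WT EBs these were all positive, at 0.451, 0.32 and 0.035. With a replicate block the count was again 10 in each comparison. Of 1078 alternative values for the other named genes 1 reversed: *Fn1*, fibronectin, was 0.09 higher on the log2 scale in treated KO than in WT EBs and stood at -0.0715 with library totals. *Tek*, an endothelial receptor, lost its call in KO against WT EBs with DESeq2 (adjusted p = 0.0541) and without WT_EB replicate 2 (adjusted p = 0.0604). Ratios per kilobase depend on the gene model: with longest transcripts the *Col4a2* to *Col4a1* ratio was 0.537 in WT, 0.535 in KO and 0.535 with PA/PC, the *Lama5* share was 41.9% in WT and 90.7% with PA/PC, and, added after the data were seen, the *Lamc1* to *Lamb1* ratio was 1.04, 1.77 and 1.34 and that of summed α1 and α5 to *Lamc1* 0.706, 0.468 and 0.662 in WT, KO and treated KO EBs. Steps as small as those of *Hspg2* and *Lamb1* with PA/PC depend in size on the scaling.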

Other observations

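Some chains that replace the main ones in other basement membranes were present at low levels. The genes named here were picked out after their values were seen. *Lamb2*, a laminin β chain, was not low, at 57.8 CPM in WT EBs, 43.8 in KO EBs and 39.8 in KO EBs with PA/PC. *Lama3* had 2.47 ± 0.15 CPM in WT EBs, 6.76 ± 0.22 in KO EBs and 0.698 ± 0.079 in KO EBs with PA/PC, and *Lama4* had 1.59 ± 0.26, 4.18 ± 0.26 and 0.613 ± 0.16. Both were thus higher in KO than in WT EBs (log2 fold changes 1.45 and 1.39, edgeR, adjusted p = 6.63e-14 and 1.15e-10), where *Lama1* and *Lama5* were lower, and fell with PA/PC (-3.10 and -2.59, adjusted p = 3.99e-20 and 1.94e-15). The minor collagen IV chains were scarce: *Col4a5* had 3.72, 3.08 and 1.70 CPM in the same order, and *Col4a3* had at most 3 counts in every KO library and in every treated one.

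*Fras1* and *Frem2*, which encode proteins of a complex under embryonic epithelia, were, as *Lama5* was, lower in KO than in WT EBs and higher with PA/PC than in KO. *Fras1* had 10.9 ± 0.36 CPM in WT, 3.50 ± 0.11 in KO and 9.78 ± 0.28 with PA/PC (log2 fold changes -1.64 and 1.65, edgeR, adjusted p = 1.21e-17 and 3.66e-18). *Frem2* had 12.9 ± 0.68, 10.4 ± 0.29 and 18.5 ± 0.95 CPM (-0.31 and 0.99, adjusted p = 0.000186 and 2.77e-16). *Frem2* was picked out after its values were seen, and *Fras1* by its change in KO against WT EBs.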
